A study of Homo sapiens with 2 samples.

Results

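The tubulin genes and the genes that fold, modify and sequester their products were compared between MOLT4 and K562, both established human leukemia lines. Members were chosen by a rule on gene symbols, set with earlier results of these data known. It took alpha-, beta-, gamma-, delta- and epsilon-tubulin genes, the tubulin folding cofactors TBCA to TBCE, the tubulin tyrosine ligase-like (TTLL) genes and the stathmins. TUBB1 and numbered pseudogene symbols were left out. The rule found 47 of the 60586 genes of the deposited table, with 46 distinct symbols because TBCE is listed under 2 identifiers. They are 21 tubulin isotypes, 6 cofactor entries, 12 ligase-like genes, 4 stathmins and 4 pseudogenes whose symbols end in P without a number.

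MOLT4 is labelled a T lymphoblast line and K562 an erythrocyte line, and neither carries a stated treatment or engineered allele. Both were grown in the same medium, total RNA was taken from 1 flask of each, and the libraries were sequenced. Each group is thus 1 cell line, so a difference between the groups cannot be told apart from a difference between these cultures. The design text states 3 biological replicates, but 1 sample per line is listed and the table holds 1 value per gene and line, so no spread between replicates can be given.

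Microtubules are polymers of alpha- and beta-tubulin dimers. Newly made alpha- and beta-tubulin are folded by a cytosolic chaperonin and joined into dimers by the cofactors TBCA to TBCE. Gamma-tubulin nucleates new microtubules, whereas delta- and epsilon-tubulin act in the centriole. The isotypes of a class are close in their globular body and differ mainly in an acidic carboxy-terminal tail, the part to which ligase-like enzymes attach glutamate or glycine. Stathmins bind free dimers and keep them from polymerizing.

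Values are FPKM, fragment counts divided by transcript length and by sequencing depth, so levels of different genes can be set side by side. A gene is called here when its q-value in the authors' deposited table is at most 0.05, and counts are over genes with a mean of at least 1 FPKM in the pair of lines. By that rule 46.0% of the 14103 tested genes at this level were called, 20.8% with the higher level in MOLT4 and 25.3% with the higher level in K562. Without the minimum level the share was 42.2% of 18870 tested genes. The depth of the libraries is unknown, since only FPKM were used. The smallest p-value in the authors' deposited table, 5e-05, is shared by 4647 genes and becomes q = 0.000203, so q does not order the strongest differences. A q-value above the threshold does not show equal levels either: the T-cell factor BCL11B stood at 50.9 FPKM in MOLT4 and 0.00363 in K562 with q = 0.369 in the authors' deposited table.

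The labels were checked against defining markers. All 7 T-lymphoid genes of a list were higher in MOLT4, with summed levels of 1347 FPKM in MOLT4 and 1.57 in K562, and DNTT was listed at 0 in K562. All 6 erythroid genes were higher in K562, with sums of 2.76 and 638 FPKM in MOLT4 and K562, and GATA1, HBZ and ALAS2 were listed at 0 in MOLT4. A list of 8 markers of other cell types summed to 44.0 FPKM in MOLT4, mostly PECAM1 at 41.2 FPKM, and to 67.6 FPKM in K562, mostly EPCAM at 52.8 FPKM. The part of these markers in the tubulin values was not tested.

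Of the 43 members in the 4 groups, 31 had a mean of at least 1 FPKM. The authors' deposited table called 21 of these 31, or 67.7% beside the background of 46.0%, with 9 higher in MOLT4 and 12 in K562. Among those called, TUBA3C, TUBA4A, TUBB2B, TUBB3, TUBB4A, TUBB6 and TTLL1 were below 1 FPKM in their lower line. They reached the minimum mean only through the other line. The 31 also include TBCE under both of its identifiers, each uncalled. The share is therefore a description of the list. Of all 47 members, 33 had a test and 14 had none.

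In the deposited values, TUBA1B and TUBB had the largest share of alpha- and beta-tubulin FPKM in both lines. For TUBA1B that share was 72.1% in MOLT4 and 52.0% in K562, where TUBA1C had 40.3%. How fragments divide among the TUBA1 genes is uncertain, as described below. MOLT4 had the higher TUBB and concentrated its beta-tubulin RNA in that gene, whereas K562 spread its RNA over more isotypes, several of which were near 0 in MOLT4. Of 16 isotypes at a mean of 1 FPKM or more, 10 were called, 3 higher in MOLT4 and 7 in K562. That is 62.5%, beside 46.0% of all tested genes at this level, 20.8% higher in MOLT4 and 25.3% in K562. Their median log2 ratio of MOLT4 to K562, each value with 1 FPKM added, was -0.73, beside -0.06 over all tested genes at this level, and -0.025 with the isotypes near 0 included. The other 5 isotypes did not exceed 0.383 FPKM in MOLT4 or 0.156 FPKM in K562. Among the called isotypes, TUBA3C, TUBA4A, TUBB2B, TUBB3, TUBB4A and TUBB6 were below 1 FPKM in their lower line. They reached a mean of 1 FPKM only through the other line, so their entry to the count depended on the higher line. At a mean of at least 5 FPKM, 5 of 11 isotypes were called, and the share of all tested genes called at that level was not computed.

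**Figure D1:**
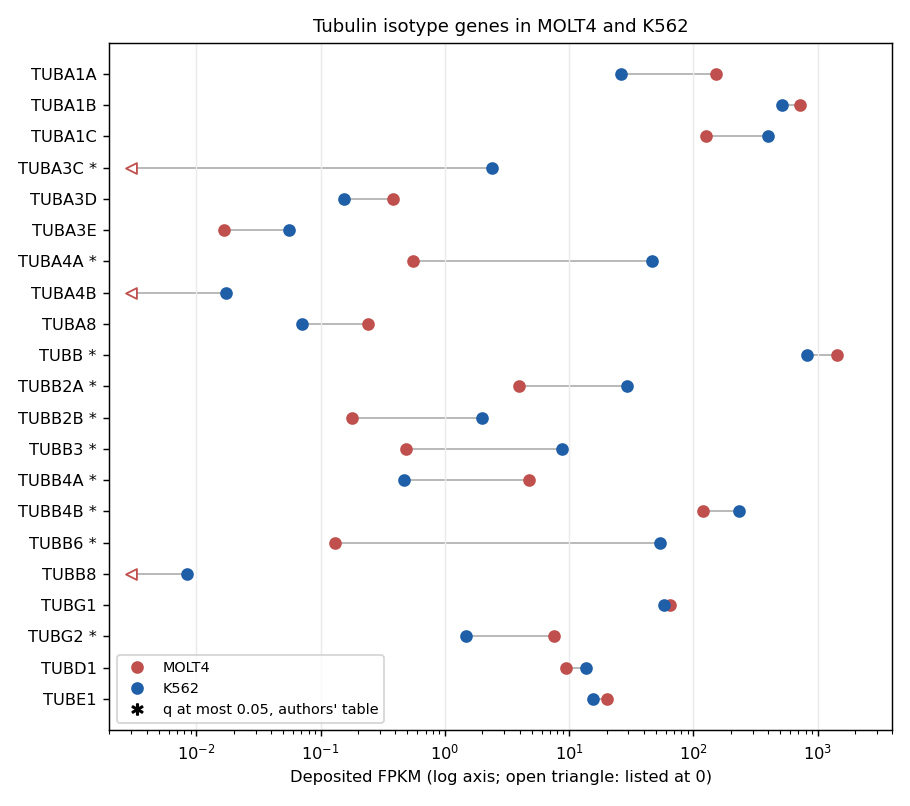
Deposited FPKM (log axis) of the 21 tubulin isotype genes, 1 value for each line, with open triangles for genes listed at 0 and an asterisk for genes called in the authors' deposited table. TUBB and TUBA1B lie far to the right in both lines, while TUBB6 and TUBA4A are below 1 FPKM in MOLT4 and at 53.9 and 46.7 FPKM in K562.

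TUBA1B, the broadly expressed alpha-tubulin at chr12:49127782-49131397 on the minus strand (GRCh38, as are all coordinates here), stood at 724 FPKM in MOLT4 and 514 in K562. It ranked 147 among all genes in MOLT4 and 181 in K562, and its 1.41-fold difference missed the threshold (q = 0.375 in the authors' deposited table). TUBA1A, at chr12:49184796-49189324 on the minus strand, is the alpha-tubulin best known from developing neurons. Its level was 151 FPKM in MOLT4 and 26.1 FPKM in K562, a 5.80-fold difference that missed it as well (q = 0.0724 in the authors' deposited table). TUBA1C, at chr12:49188736-49274603 on the plus strand, had the opposite order, with 127 FPKM in MOLT4 and 398 FPKM in K562 (3.13-fold, q = 0.168 in the authors' deposited table). The ratio of TUBA1A to TUBA1C was therefore 1.19 in MOLT4 and 0.0655 in K562. None of these TUBA1 genes was called, and the deposited table puts all of them in 1 locus.

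Of 5 alpha-tubulin genes at a mean of 1 FPKM or more, 2 were called, TUBA4A and TUBA3C, both higher in K562. That is 40%, beside the background of 46.0%, of which 25.3% is higher in K562. Both genes were below 1 FPKM in MOLT4 and reached that mean only through K562. TUBA4A, at chr2:219249711-219278170 on the minus strand, is known as an alpha-tubulin of platelets. It stood at 0.552 FPKM in MOLT4 and 46.7 in K562, an 84.7-fold difference (q = 0.000203 in the authors' deposited table). Its exons share 15.4% of their bases with STK16 on the opposite strand, a gene at 7.81 FPKM in MOLT4 and 11.5 in K562. The part of this overlap in the TUBA4A values was not tested. TUBA3C, known as a testis alpha-tubulin, was listed at 0 in MOLT4 and at 2.39 FPKM in K562 (q = 0.000203 in the authors' deposited table). The remaining alpha-tubulin genes, TUBA3D, TUBA3E, TUBA4B and TUBA8, stayed below 1 FPKM in both lines.

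Alpha-tubulin genes also differ in how they end. Most encode a tyrosine as the last residue, which cells remove and add back on polymerized and free tubulin, whereas TUBA4A encodes no such tyrosine. The last 60 coding bases of TUBA4A, stop codon included, are shown because this gene set the lines apart most among the alpha-tubulins with a level above 0 in both. They come from its GENCODE 29 transcript and read 5′ to 3′ on the coding strand, with the last codon before the stop in capitals.
TUBA4A (chr2:219250352-219250411, minus strand): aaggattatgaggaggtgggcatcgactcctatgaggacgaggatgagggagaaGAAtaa
The last codon of TUBA4A is a glutamate codon. Read as shares of summed alpha-tubulin FPKM, TUBA4A took 0.0550% in MOLT4 and 4.73% in K562.

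Summed over its 9 genes, alpha-tubulin reached 1004 FPKM in MOLT4 and 987 FPKM in K562, a ratio of 1.02. In the deposited values these near-equal sums were divided differently, mainly among the TUBA1 genes. None of those was called, and how fragments divide among them is uncertain, as described below. TUBA1B made up 72.1% of the sum in MOLT4 and 52.0% in K562, TUBA1A 15.1% and 2.64%, and TUBA1C 12.7% and 40.3%. Without TUBA1B, the remaining genes summed to 280 FPKM in MOLT4 and 473 FPKM in K562, 1.69-fold higher in K562. In MOLT4 3 alpha-tubulin genes reached 1 FPKM, and in K562 5 did.

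All 7 beta-tubulin genes at a mean of 1 FPKM or more were called, 2 higher in MOLT4 and 5 in K562. The background is 46.0%, with 20.8% higher in MOLT4 and 25.3% in K562. TUBB2B, TUBB3, TUBB4A and TUBB6 were below 1 FPKM in their lower line and reached that mean only through the other line. TUBB, the broadly expressed class I beta-tubulin at chr6:30720201-30725426 on the plus strand, was the most abundant isotype of any class. It stood at 1429 FPKM in MOLT4, where it ranked 64 among all genes, and at 820 FPKM in K562, where it ranked 132 (1.74-fold, q = 0.00902 in the authors' deposited table). TUBB4B, a beta-tubulin found in many tissues and in cilia, lies at chr9:137241213-137243707 on the plus strand. Its level was 119 FPKM in MOLT4 and 231 FPKM in K562, 1.94-fold higher in K562 (q = 0.000203 in the authors' deposited table). The ratio of TUBB4B to TUBB was 0.0834 in MOLT4 and 0.282 in K562.

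TUBB6, the divergent class V beta-tubulin at chr18:12307669-12344320 on the plus strand, had the largest fold difference of the measured isotypes with a level above 0 in both lines. It stood at 0.132 FPKM in MOLT4 and 53.9 in K562, 410-fold higher in K562 (q = 0.000203 in the authors' deposited table). Its exons share 20.3% of their bases with AFG3L2 on the opposite strand, a gene at 25.4 FPKM in MOLT4 and 65.6 in K562. That gene was well above TUBB6 in MOLT4, and the part of this overlap in the TUBB6 values was not tested.

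Beta-tubulins best known from the nervous system were present at lower levels, and most were higher in K562. TUBB2A stood at 3.92 FPKM in MOLT4 and 29.5 in K562 (7.52-fold, q = 0.000203 in the authors' deposited table). Its neighbour TUBB2B stood at 0.179 and 1.99 FPKM, 11.2-fold higher in K562 (q = 0.0266 in the authors' deposited table). TUBB3, the class III isotype used as a neuronal marker, stood at 0.483 FPKM in MOLT4 and 8.77 in K562 (18.2-fold, q = 0.000203 in the authors' deposited table). TUBB4A, a brain isotype, went the other way, with 4.73 FPKM in MOLT4 and 0.472 FPKM in K562 (10.0-fold, q = 0.000203 in the authors' deposited table). TUBB8, known from oocytes, was listed at 0 in MOLT4 and at 0.00841 FPKM in K562.

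The tails of the beta-tubulins are shown because the tail is where the isotypes of a class differ most and where the ligase-like enzymes act. The last 60 coding bases of each gene listed here are given as above, with capitals marking every in-frame glutamate codon (GAA or GAG). The ends of TUBB8 and of TUBB2B, which nearly matches TUBB2A, are not shown.
TUBB (chr6:30724338-30724397, plus strand): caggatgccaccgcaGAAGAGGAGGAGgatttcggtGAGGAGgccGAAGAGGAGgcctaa
TUBB4B (chr9:137243497-137243556, plus strand): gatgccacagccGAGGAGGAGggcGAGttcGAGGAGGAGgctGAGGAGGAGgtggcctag
TUBB2A (chr6:3153863-3153922, minus strand): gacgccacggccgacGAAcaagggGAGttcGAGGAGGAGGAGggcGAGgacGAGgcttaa
TUBB6 (chr18:12326071-12326130, plus strand): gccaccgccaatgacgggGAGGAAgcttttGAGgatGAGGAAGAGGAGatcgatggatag
TUBB3 (chr16:89935745-89935804, plus strand): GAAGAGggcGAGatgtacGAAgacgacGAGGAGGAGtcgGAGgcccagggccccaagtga
TUBB4A (chr19:6495164-6495223, minus strand): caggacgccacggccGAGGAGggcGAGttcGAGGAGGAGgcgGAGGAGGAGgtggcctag
Within these 60 bases TUBB and TUBB4A have 9 glutamate codons each, TUBB4B 10, TUBB2A and TUBB3 8 each, and TUBB6 7.

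Summed beta-tubulin was 1557 FPKM in MOLT4 and 1146 FPKM in K562, 1.36-fold higher in MOLT4, and TUBB set that direction. TUBB made up 91.7% of the sum in MOLT4 and 71.6% in K562. The other beta-tubulin genes together reached 129 FPKM in MOLT4 and 326 FPKM in K562, 2.53-fold higher in K562. TUBB4B took 7.65% of the class in MOLT4 and 20.2% in K562, TUBB6 0.00845% and 4.71%, and TUBB2A 0.252% and 2.57%. In MOLT4 4 beta-tubulin genes reached 1 FPKM, and in K562 6 did. The ratio of summed beta- to summed alpha-tubulin was 1.55 in MOLT4 and 1.16 in K562.

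**Figure D2:**
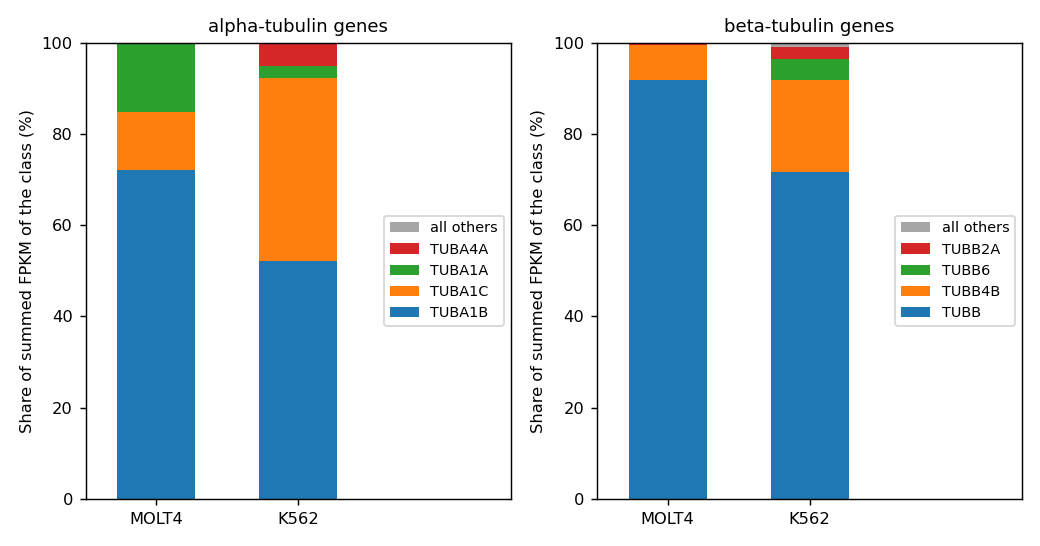
Share of summed alpha-tubulin (left) and beta-tubulin (right) FPKM taken by each gene in MOLT4 and K562, in percent, with genes below 1% in both lines pooled as all others. TUBB fills 91.7% of the beta-tubulin bar in MOLT4 and 71.6% in K562, and TUBA1B 72.1% and 52.0% of the alpha-tubulin bar.

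Near-identical copies limit how firmly fragments can be divided among these genes. Coding identity was 98.1% between TUBB2A and TUBB2B, 97.2% between TUBA1A and TUBA1B, and 96.8% between TUBA1B and TUBA1C. As a description, each coding sequence was cut into overlapping windows of 50 bases, a length chosen here in the absence of a stated read length. Of these windows, 75.7% in TUBA1B, 58.6% in TUBA1A and 57.0% in TUBA1C were also found in a transcript of another gene. The share was 78.5% in TUBB2A and 79.8% in TUBB2B, but 33.4% in TUBB, 12.2% in TUBB4B, 11.7% in TUBB4A, 8.55% in TUBA4A and 1.55% in TUBB6. TUBB6 and TUBA4A were thus largely distinct in sequence, while the split among the TUBA1 genes and between TUBB2A and TUBB2B is uncertain. TUBB3 reached 95.8%, where the annotation holds a longer transcript, AC092143.1, over the same exons on the same strand; the deposited table lists that gene at 0 in both lines.

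Several tubulin genes lie under annotated antisense genes that carried high values themselves. GENCODE 29 places exons of 4 antisense genes with a mean of at least 1 FPKM inside tubulin exons, and each had the same order of the lines as the tubulin gene it overlaps. AC011603.2, at chr12:49127782-49147869, shares 80.2% of its exonic bases with TUBA1B. It stood at 2234 FPKM in MOLT4 and 1439 in K562 (1.55-fold, q = 0.0972 in the authors' deposited table), 3.09 and 2.80 times the level of TUBA1B itself. AL662797.1, at chr6:30723105-30723877, shares 69.6% of its exonic bases with TUBB. It stood at 1350 and 840 FPKM in MOLT4 and K562 (1.61-fold, q = 0.315 in the authors' deposited table), 0.945 and 1.02 times TUBB.

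AC125611.3, at chr12:49265156-49273306, shares 97.9% of its exonic bases with TUBA1C and had 137 FPKM in MOLT4 and 497 FPKM in K562 (3.62-fold, q = 0.209 in the authors' deposited table). AC010503.1, at chr19:6494320-6495025, lies wholly within TUBB4A exons and had 5.06 FPKM in MOLT4 and 0.467 FPKM in K562 (10.8-fold, q = 0.0111 in the authors' deposited table). The sources used here do not say whether the counting used strand, so fragments of a tubulin gene and of its antisense partner cannot be told apart. TUBA1A and TUBA1C also share 490 exonic bases on opposite strands. TUBB2B likewise shares 174 with the coding gene PSMG4, at 19.6 FPKM in MOLT4 and 30.0 in K562. TBCB shares 417 with the coding gene POLR2I, at 78.9 and 58.4 FPKM. With each antisense value added to its tubulin gene, an alternative chosen after seeing the data, TUBB was 95.4% of beta-tubulin in MOLT4 and 83.6% in K562. TUBA1B was then 87.6% and 66.8% of alpha-tubulin, again the larger share in MOLT4. TUBA1C was 7.84% in MOLT4 and 30.6% in K562, and TUBA1A 4.48% and 0.892%.

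**Figure D3:**
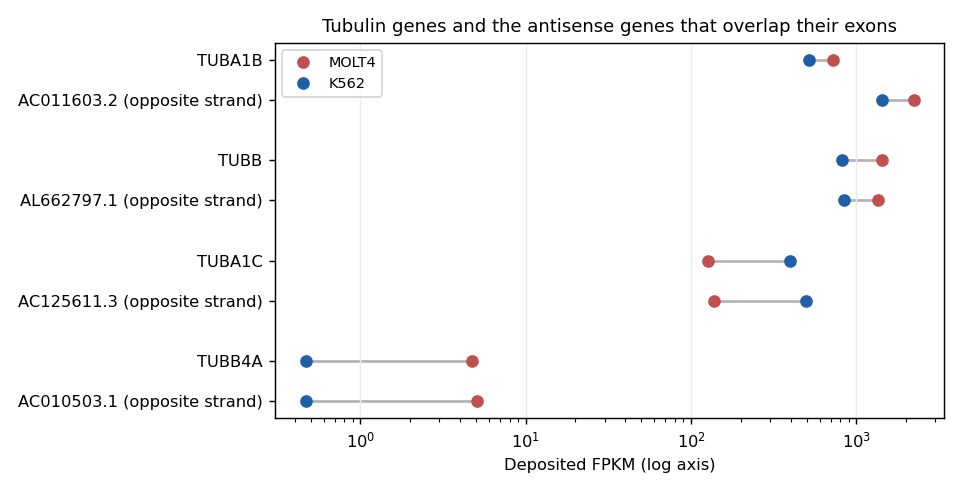
Deposited FPKM (log axis) in MOLT4 and K562 of 4 tubulin genes and, under each, the antisense gene annotated over its exons. Each pair has the same order of the lines, and AC011603.2 exceeds TUBA1B in both.

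Most gamma-tubulin RNA came from TUBG1, which made up 89.6% of the class in MOLT4 and 97.5% in K562. TUBG1, the main nucleating isotype at chr17:42609676-42615234 on the plus strand, stood at 64.3 FPKM in MOLT4 and 57.8 in K562, with q above the threshold (1.11-fold, q = 0.625 in the authors' deposited table). TUBG2, a close copy at chr17:42659305-42667006 on the plus strand, stood at 7.50 FPKM in MOLT4 and 1.49 in K562. It was 5.04-fold higher in MOLT4 (q = 0.000203 in the authors' deposited table) and made up 10.4% of gamma-tubulin in MOLT4 and 2.51% in K562. Coding identity of the pair was 94.7%, and 35.7% of TUBG1 and 35.4% of TUBG2 windows of 50 bases were found in another gene.

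Neither of the centriolar tubulins was called. TUBD1, delta-tubulin, stood at 9.36 FPKM in MOLT4 and 13.8 in K562 (1.47-fold, q = 0.0669 in the authors' deposited table). TUBE1, epsilon-tubulin, stood at 20.2 FPKM in MOLT4 and 15.5 in K562 (1.30-fold, q = 0.316 in the authors' deposited table).

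Among the folding cofactors, TBCB and TBCD were higher in MOLT4 and TBCC in K562, so 3 of 6 entries were called (2 higher in MOLT4, 1 higher in K562), a share near the background of 46.0%. The median log2 ratio was -0.37. TBCE enters this share and this median under both of its identifiers, each uncalled, with log2 ratios of -1.25 and -0.88. Both summaries thus depend on counting that gene more than once. TBCA, which holds beta-tubulin after release from the chaperonin, was the most abundant, with 278 FPKM in MOLT4 and 267 FPKM in K562 (1.04-fold, q = 0.821 in the authors' deposited table). TBCB, which captures alpha-tubulin, stood at 75.0 and 33.97 FPKM (2.21-fold, q = 0.000203 in the authors' deposited table). TBCD, which binds beta-tubulin and forms the assembly complex with TBCE, stood at 90.4 and 29.7 FPKM, 3.04-fold higher in MOLT4 (q = 0.000203 in the authors' deposited table).

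TBCC, which stimulates GTP hydrolysis to release the finished dimer, went the other way. It stood at 11.05 FPKM in MOLT4 and 20.1 in K562 (1.82-fold, q = 0.000203 in the authors' deposited table). TBCE, the alpha-tubulin partner in the assembly complex, is listed under ENSG00000284770 at 12.3 FPKM in MOLT4 and 30.6 in K562 (q = 0.114 in the authors' deposited table). Under ENSG00000285053 it is listed at 10.0 and 19.3 FPKM (q = 0.321 in the authors' deposited table). These entries overlap on the same strand, and 97.3% and 100% of their coding windows of 50 bases were found in another gene's transcripts, so their split is uncertain.

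**Figure D4:**
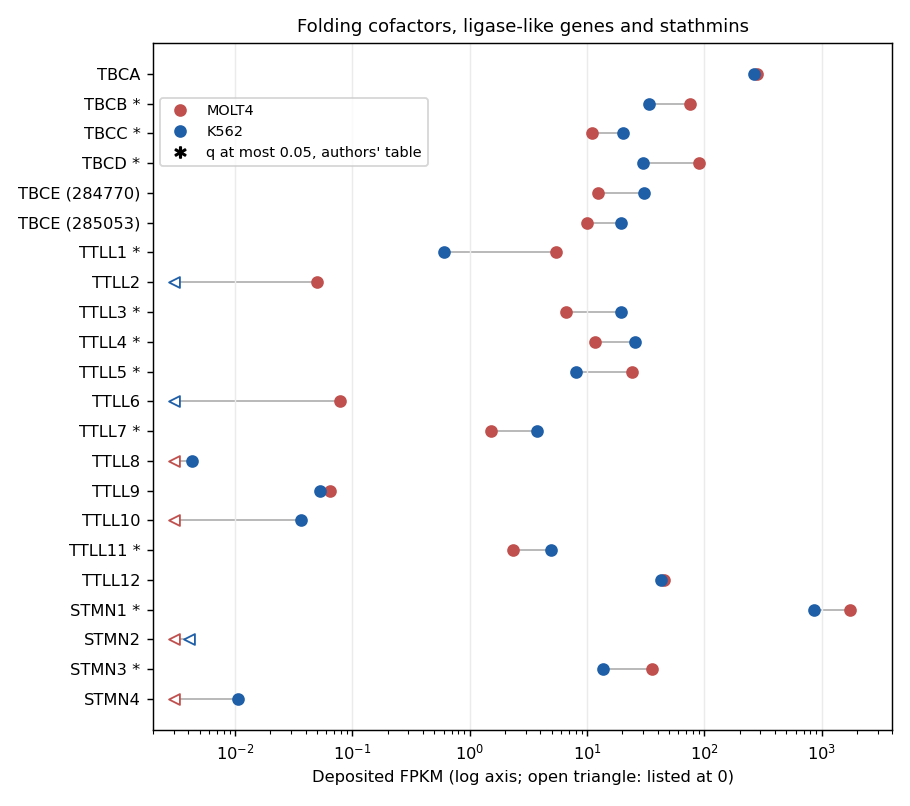
Deposited FPKM (log axis) of the folding cofactors, ligase-like genes and stathmins, 1 value for each line, with open triangles for genes listed at 0 and an asterisk for genes called in the authors' deposited table. TTLL1, TTLL5, TBCB, TBCD, STMN1 and STMN3 are higher in MOLT4, and TBCC, TTLL3, TTLL4, TTLL7 and TTLL11 are higher in K562.

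The ligase-like genes split by enzyme. Of 7 at a mean of 1 FPKM or more, 6 were called. TTLL1 and TTLL5 were higher in MOLT4, and TTLL3, TTLL4, TTLL7 and TTLL11 higher in K562. The called share was 85.7% of a small family, beside the background of 46.0%. TTLL1 was below 1 FPKM in K562 and reached that mean only through MOLT4. The median log2 ratio was -0.84, but it turned to 0.0050 with the genes near 0 included. The other 5 genes, TTLL2, TTLL6, TTLL8, TTLL9 and TTLL10, did not exceed 0.0785 FPKM in MOLT4 or 0.0531 FPKM in K562.

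TTLL1, the catalytic subunit of a tubulin polyglutamylase complex, stood at 5.45 FPKM in MOLT4 and 0.5998 in K562 (9.08-fold, q = 0.000203 in the authors' deposited table). TTLL5, a glutamylase that starts side chains, stood at 23.99 and 8.07 FPKM, 2.97-fold higher in MOLT4 (q = 0.000203 in the authors' deposited table). TTLL4, another starter of side chains, was the reverse, with 11.7 FPKM in MOLT4 and 25.5 FPKM in K562 (2.18-fold, q = 0.00553 in the authors' deposited table). The ratio of TTLL4 to TTLL5 was 0.487 in MOLT4 and 3.17 in K562, so the more abundant of these enzymes differed between the lines.

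TTLL7, a glutamylase that prefers beta-tubulin tails, stood at 1.52 FPKM in MOLT4 and 3.75 in K562 (2.47-fold, q = 0.0195 in the authors' deposited table). TTLL11, which lengthens glutamate chains, stood at 2.31 and 4.94 FPKM, 2.14-fold higher in K562 (q = 0.00863 in the authors' deposited table). TTLL3, which starts glycine chains, stood at 6.63 FPKM in MOLT4 and 19.6 in K562 (2.96-fold, q = 0.00902 in the authors' deposited table). TTLL3 shares exons with the readthrough gene ARPC4-TTLL3 on the same strand, at 7.49 FPKM in MOLT4 and 17.2 in K562, so its value is uncertain. TTLL12, the most abundant of the family and one with no established ligase activity, stood at 44.9 and 42.4 FPKM with no call (1.06-fold, q = 0.753 in the authors' deposited table).

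Both stathmins above 1 FPKM were higher in MOLT4. STMN1, which sequesters free tubulin dimers and is abundant in proliferating cells, ranked 44 among all genes in MOLT4 and 127 in K562. It stood at 1726 FPKM in MOLT4 and 866 in K562, 1.99-fold (q = 0.000203 in the authors' deposited table). STMN3, a stathmin best known from neurons, stood at 35.7 and 13.6 FPKM, 2.63-fold higher in MOLT4 (q = 0.000203 in the authors' deposited table). The neuronal STMN2 was listed at 0 in both lines, and STMN4 at 0 in MOLT4 and 0.0105 FPKM in K562.

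Of the 4 pseudogenes, TUBA3FP was the only one with a mean above 1 FPKM, at 0.0852 FPKM in MOLT4 and 3.57 in K562 (q = 0.0281 in the authors' deposited table). It shares 60.1% of its exonic bases with other annotated genes. TUBA3GP, TUBB7P and TUBG1P did not exceed 0.108 FPKM in MOLT4 or 0.0328 FPKM in K562.

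Tubulin messages are also controlled by their own product. TTC5 recognizes the first residues of nascent alpha- and beta-tubulin, and SCAPER then brings the CCR4-NOT deadenylase to the ribosome. The first 24 coding bases are shown for the most abundant gene of each class and for TUBB6, with the first 4 codons in capitals. The TUBB and TUBB6 stretches lie at chr6:30720507-30720530 and chr18:12308293-12308316 on the plus strand, and that of TUBA1B is spliced from separate exons on the minus strand of chromosome 12.
TUBA1B: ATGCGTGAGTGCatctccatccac
TUBB: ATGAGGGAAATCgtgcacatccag
TUBB6: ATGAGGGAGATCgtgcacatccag
Codons for methionine, arginine and glutamate open 16 of the 17 alpha- and beta-tubulin genes, with TUBA4B the exception. Of 13 genes on a list of this pathway, 6 were called, 5 higher in MOLT4 and 1 in K562, with a median log2 ratio of 0.48. That is 46.2%, near the background of 46.0%. SCAPER stood at 10.9 FPKM in MOLT4 and 2.64 in K562 (4.14-fold, q = 0.000203 in the authors' deposited table). CNOT6L, a deadenylase, stood at 30.1 and 13.2 FPKM, and CNOT9, another CCR4-NOT subunit, at 68.4 and 31.4 FPKM, both called higher in MOLT4. TTC5, named because it is the sensor, stood at 13.9 FPKM in MOLT4 and 6.04 in K562 (q = 0.00219 in the authors' deposited table). CNOT7, the most abundant gene of the list by the mean of the lines, stood at 162 and 103 FPKM, although CNOT1 was above it in K562 at 108 FPKM.

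The chaperonin and prefoldin list, which also holds ARL2, TBCEL and TBCCD1, had 5 of 19 genes called, 1 higher in MOLT4 and 4 in K562. ARL2, higher in K562, and TBCEL are among those 5. The median log2 ratio of the list was -0.33. The chaperonin subunits CCT8, at 180 FPKM in MOLT4 and 483 in K562, and CCT5, at 349 and 713 FPKM, were called higher in K562. TBCEL, a relative of TBCE, was called higher in MOLT4 with 5.52 and 2.28 FPKM. CCT5 was the most abundant gene of the list by the mean of the lines, although TCP1 was above it in MOLT4 at 453 FPKM. The called share, 26.3%, lay below the background of 46.0%.

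Beside gamma-tubulin, 6 of 20 genes of the gamma-tubulin ring complex and its recruitment factors were called, all 6 higher in MOLT4, with a median log2 ratio of 0.44. The called share, 30.0%, lay below the background of 46.0%. NEDD1, which anchors the complex at centrosomes and spindles, stood at 52.8 FPKM in MOLT4 and 15.3 in K562 (3.44-fold, q = 0.000203 in the authors' deposited table). The complex subunits TUBGCP6, at 16.3 and 6.90 FPKM, and TUBGCP3, at 24.9 and 12.7 FPKM, were also called. MZT2B, the most abundant, stood at 123 and 76.0 FPKM.

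Among enzymes that modify tubulin outside the ligase-like family, 8 of 17 measured genes were called, 7 higher in MOLT4 and 1 in K562, with a median log2 ratio of 0.35. The called share, 47.1%, was near the background of 46.0%. VASH2, which removes the terminal tyrosine of alpha-tubulin, stood at 14.8 FPKM in MOLT4 and 0.385 in K562 (38.5-fold, q = 0.000203 in the authors' deposited table). ATAT1, the alpha-tubulin acetyltransferase, stood at 17.5 and 1.94 FPKM (8.98-fold, q = 0.000203 in the authors' deposited table). KIAA0895, an older symbol of MATCAP2, stood at 4.09 and 0.392 FPKM. TPGS2, a subunit of the TTLL1 complex and the most abundant of the list, was the 1 gene called higher in K562, with 57.5 FPKM in MOLT4 and 139 FPKM in K562. Within that complex the catalytic TTLL1 and the subunit TPGS2 thus had opposite orders of the lines. TPGS1, NICN1 and C11orf49 of the same list were 1.04-, 1.37- and 1.28-fold higher in MOLT4, with no call. LRRC49, higher in K562, was near 0 in both lines and had no test.

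Microtubule-associated and end-binding proteins were called in both directions, 5 higher in MOLT4 and 5 in K562 among 22 measured, with a median log2 ratio of -0.05. Their called share, 45.5%, was near the background of 46.0%, which itself splits into 20.8% higher in MOLT4 and 25.3% in K562. MAPRE3, which tracks growing plus ends, stood at 0.0740 FPKM in MOLT4 and 30.9 in K562, and MAP1B, a neuronal microtubule stabilizer, at 0.113 and 23.5 FPKM. MAP9 stood at 5.66 and 0.0234 FPKM. TPX2, a spindle assembly factor and the most abundant of the list, stood at 154 and 123 FPKM. Of 7 measured severing enzymes, only KATNAL1 was called, or 14.3% beside the background of 46.0%, with 11.7 FPKM in MOLT4 and 5.05 in K562, and the most abundant, KATNA1, stood at 28.8 and 34.5 FPKM. The median log2 ratio of the severing enzymes was 0.15.

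**Figure D5:**
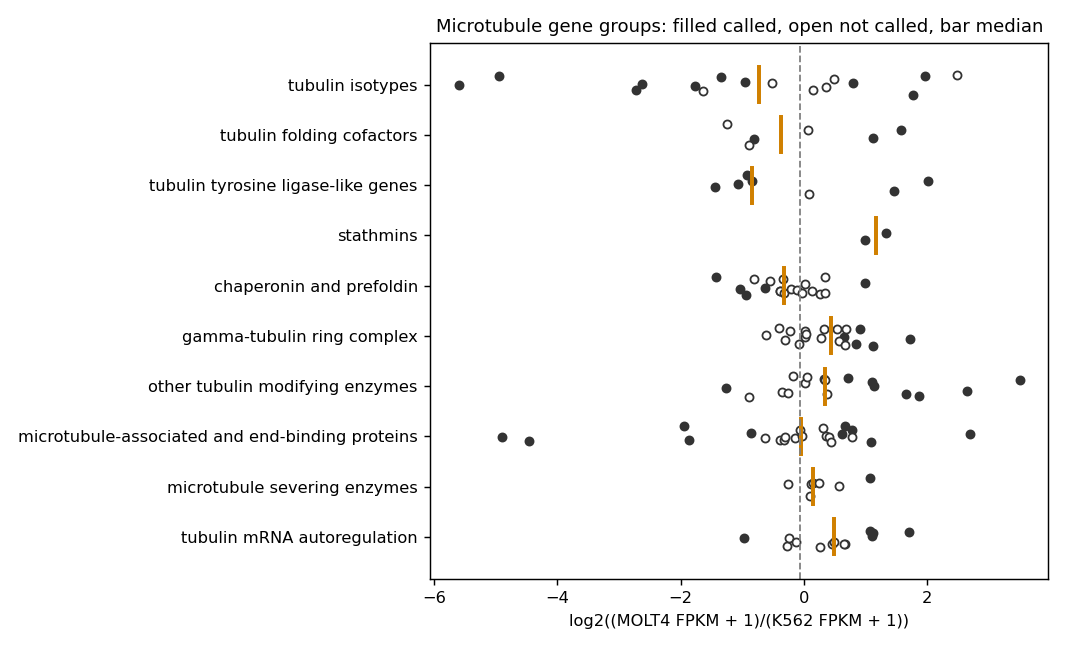
Log2 ratio of MOLT4 to K562 (each FPKM with 1 added) of every gene at a mean of 1 FPKM or more in the member groups and pathway lists, filled where called, with a bar at each group's median and a dashed line at the median of all tested genes at this level, -0.06. The isotypes spread most widely to the left, with a median of -0.73, and both stathmins lie to the right.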

How the data were processed

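The submitters' processing notes name Cuffdiff, Cufflinks 2.2.2, TopHat2 2.1.1 and CASAVA 1.8.2, with builds GRCh38.p13 and hg38. The authors deposited FPKM, 1 value per gene and line, with a Cuffdiff p-value and q-value per gene. Whether these combine replicates, how the lines were scaled, and whether strand was used are not given in the sources used here. With a single library behind each line, a q-value would compare 2 libraries rather than 2 lines.

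The q-values were recomputed from the p-values by Benjamini-Hochberg adjustment and matched. From the FPKM, fold differences, shares, sums and log2 ratios with a pseudocount of 1 FPKM were computed (Python 3.11.15, pandas 2.3.3, NumPy 2.4.6), after testing on simulated data. Gene models and sequences came from GENCODE 29 on GRCh38, and all 47 members matched by identifier. Values are given in full for members with a mean of at least 1 FPKM, and the others by count and range, except that TUBB8, STMN2 and STMN4 are also given singly. From each pathway list, the 3 called genes with the largest log2 ratio and the most abundant gene are named. Members and lists were chosen with earlier results of these data known. The ends of some other alpha-tubulin coding sequences are not reported here.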

Additional observations from a re-analysis of the deposited data

How the results depend on the processing

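Scaling each line to its summed FPKM (TPM scale) shifted all log2 ratios by 0.11 and centring by 0.03, and neither turned the direction of any of 30 members. The TPM scale turned the median of the microtubule-associated proteins to 0.057. With a mean of at least 5 FPKM, 5 of 11 isotypes were called, beside 10 of 16 in the main setting. For ligase-like genes the counts were 3 of 4 and 6 of 7. The share of all tested genes called at 5 FPKM was not computed. With a 2-fold minimum, called genes numbered 1 of 2 for stathmins, 3 of 19 for chaperonin and prefoldin and 2 of 20 for the gamma-tubulin ring complex. They numbered 6 of 22 for microtubule-associated proteins, and 4812 of 14103 over all tested genes at a mean of at least 1 FPKM. Both rules by construction keep fewer genes. With no minimum level, which adds genes near 0, the median log2 ratio was -0.025 for isotypes, 0.0050 for ligase-like genes, turned in sign, and 0.50 for stathmins. Without its most abundant gene, the MOLT4 to K562 ratio turned to 0.591 for summed alpha-tubulin and to 0.394 for beta-tubulin, and moved to 5.04 for gamma-tubulin. Adding the antisense genes, chosen after seeing the data, gave 1.15 for alpha- and 1.47 for beta-tubulin. No paired analysis was possible because the table gives 1 value per line, and for the same reason no replicate could be left out. Depth is unknown, which limits what can be said of genes near 0.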
